A study of Mus musculus with 3 samples.

Results

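The genes described here are the transcripts of MHC class II antigen presentation and of its co-stimulators: the class II chains H2-Aa, H2-Ab1 and H2-Eb1, the peptide editor chains H2-DMa and H2-DMb1, the invariant chain gene Cd74, the class II transactivator gene Ciita, and the co-stimulation genes Cd80, Cd86 and Cd83. They were taken by symbol as a functional group, and all 10 had a row among the 23234 genes listed for each library. RNA-seq libraries came from cells sorted out of C57BL/6J mice, wild-type and 6 to 15 weeks old, that had all received 10 µg of lipopolysaccharide (LPS), a bacterial cell wall component, in 10 µL by the nose. Double-positive cells (DP) were CD45+Ly6G+SiglecF+ cells of the nose taken at day 2. Nasal neutrophils were CD45+Ly6G+SiglecF- cells of the nose taken at day 1, and blood neutrophils were cells of that gate from peripheral blood at day 1. No group was left without LPS, and the number of mice behind a library is not given in the sources used here.

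Each group was 1 library. Differences therefore have no replicate error and no test. DP differ from nasal neutrophils in gate and in day, and from blood neutrophils in tissue as well, and these cannot be told apart. Values are FPKM, fragment numbers scaled by transcript length and by library size, and log2 ratios are between values of FPKM + 1, which understates the difference of low genes. Low values lay at steps that put the depth at about 54.3 fragments per FPKM and kilobase for DP, 12.8 for the nasal neutrophils and 53.8 for the blood neutrophils, so the nasal neutrophil library was the shallowest. Among the 10719 genes with a mean of 1 FPKM or more, here the tested genes, the median log2 ratio was 0.57 for DP against nasal neutrophils, 0.41 for nasal against blood neutrophils and 0.95 when DP were set against blood, so a member's ratio is read beside these values. The deposited tables list S100a8, a major neutrophil transcript, at 0 in blood, which shows that a listed 0 can be a failed estimate; no member was at 0 in any library. The Ly6G gate selects neutrophils, and all 12 neutrophil markers were above 1 FPKM in DP and in nasal neutrophils. Of these 12, 7 were at least 4-fold lower in DP than in nasal neutrophils and 0 higher, against 3.62% and 8.42% of the tested genes. The granule gene Lcn2 stood at 70.2 FPKM in DP, 3577 FPKM in nasal neutrophils and 936.5 FPKM in blood neutrophils, and the receptor gene Csf3r at 581.4, 606.8 and 1180 FPKM.

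MHC class II molecules are heterodimers of an alpha and a beta chain that show peptides from endocytosed protein to CD4+ T cells. The invariant chain, CD74, guides them to the endosome, where cathepsins trim it and the chaperone H2-M, made of H2-DMa and H2-DMb1 products, exchanges its last fragment for peptide. CIITA, encoded by Ciita, is recruited to conserved X and Y boxes in the promoters of these genes and sets their transcription. CD80 and CD86, the B7 molecules, engage CD28 and CTLA-4 on T cells, and CD83 stabilises class II and CD86 at the surface. These are hallmarks of dendritic cells, B cells and macrophages, and neutrophils can acquire some of them in inflamed tissue.

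Class II genes are classically driven through a shared X and Y box. H2-Aa, H2-Eb1, H2-DMb1, H2-DMa and Cd80 were all higher in nasal than in blood neutrophils. Among these, the stretches of H2-DMa and Cd80 held neither a Y box nor an X box core and are not shown. The promoter stretches of H2-Aa, H2-Eb1 and H2-DMb1 are shown as those with a Y box. They run from 110 to 31 bases before the RefSeq gene start, on the strand of the gene, in build GRCm38.p6, and capitals mark matches on that strand to the Y box (ATTGG) and to an X box core (AGNNACNGA).
H2-Aa, chr17:34287854-34287933, minus strand: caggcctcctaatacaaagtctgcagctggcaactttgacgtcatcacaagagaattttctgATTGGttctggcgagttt
H2-Eb1, chr17:34305757-34305836, plus strand: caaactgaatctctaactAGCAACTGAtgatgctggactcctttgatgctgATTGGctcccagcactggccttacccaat
H2-DMb1, chr17:34153081-34153160, plus strand: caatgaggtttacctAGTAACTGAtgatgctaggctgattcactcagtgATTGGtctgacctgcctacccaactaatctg

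The Y box began 48 bases before the start of H2-Aa, 59 before that of H2-Eb1 and 61 before that of H2-DMb1, and H2-Eb1 had another on the reverse strand at 35, which is not in capitals. The X box core matched 92 bases before the start of H2-Eb1 and 95 before that of H2-DMb1, with a further match on the reverse strand 163 bases before the H2-DMb1 start, and these letters were not in the H2-Aa window. RefSeq windows of 250 bases before to 50 after a start were at hand for 5 of the 10 members (6 windows, as H2-DMa has 2 starts), and both strands were searched. Of all 32851 such windows, 37.4% held the Y box and 17.7% the X box core. A core followed on the same strand by a Y box that begins 30 to 36 bases further on was in 11 windows (0.03%), those of H2-Eb1, H2-DMb1 and H2-Eb2 among them; that spacing was chosen after the matches were seen. The H2-DMa windows held a Y box 198 bases before the second start, and the Cd80 window neither motif. An interferon-stimulated element (GAAANNGAA, in 8.56% of windows) and a gamma-activated site (TTCNNNGAA, in 8.3%) were in none of the 6 windows, and a kappaB core (GGNNTTTCC, in 5.82%) was in that of H2-DMb1, on the reverse strand. No matches to different motifs overlapped in these 6 windows. A match is a string of letters and not a measured binding site.

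The class II chains and Cd74 were at 15.6 FPKM or more in all 3 libraries, highest in nasal neutrophils and lowest in blood neutrophils. The summed level of H2-Aa, H2-Ab1 and H2-Eb1 was 318 FPKM in DP, 573.3 FPKM in nasal neutrophils and 123.6 FPKM in blood neutrophils. The DP sum was thus 1.80-fold below that of nasal neutrophils and 2.57-fold above that of blood neutrophils, and the nasal sum was 4.64-fold above that of blood. With Cd74 included, these 4 genes held 0.178% of all FPKM for DP, 0.272% for the nasal neutrophils and 0.0528% for the blood neutrophils. In such sorted bulk samples, fewer cells of a kind and less RNA per cell cannot be told apart.

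**Figure D1:**
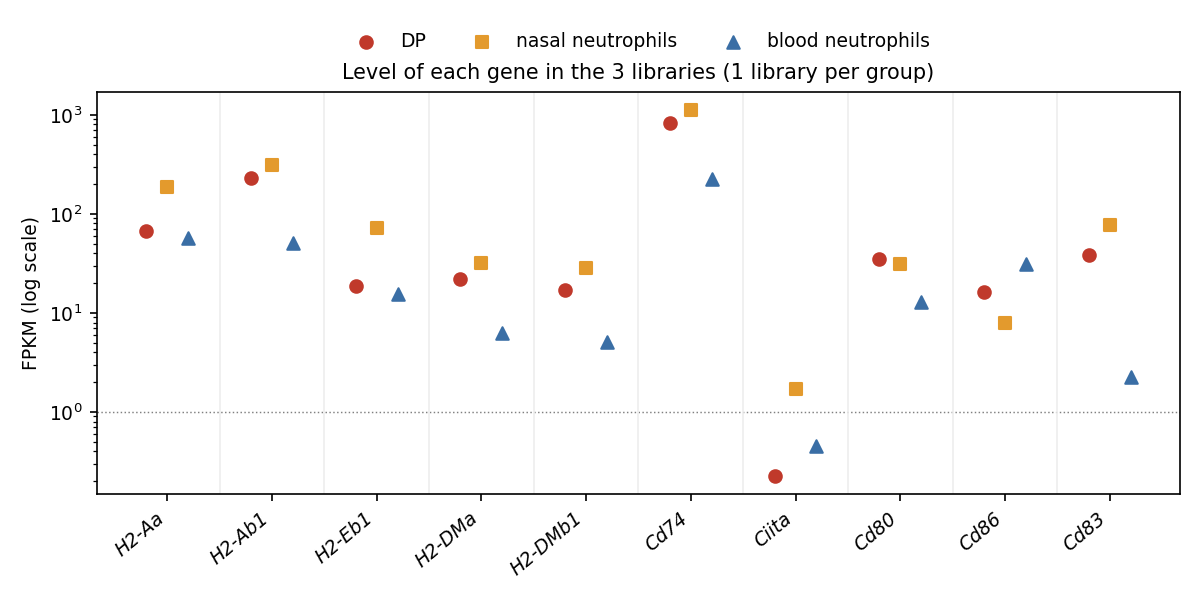
FPKM of each of the 10 genes (log axis) in DP, nasal neutrophils and blood neutrophils, 1 point per library; the dotted line is 1 FPKM. The class II chains, H2-DMa, H2-DMb1 and Cd74 are highest in nasal neutrophils and lowest in blood neutrophils, Cd86 runs the other way (16.3, 7.82 and 31.5 FPKM), and Ciita is under 1 FPKM in DP and blood neutrophils.

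H2-Ab1, which encodes the beta chain of the I-A molecule, stood at 231.8 FPKM in DP, 312.8 FPKM in nasal neutrophils and 50.6 FPKM in blood neutrophils. As deposited, both nasal libraries were far above blood, with log2 ratios of 2.17 for DP and 2.61 for nasal neutrophils against blood neutrophils. They differed from each other by a log2 ratio of -0.43. Centred on the median of all tested genes, H2-Ab1 in DP was at 1.22 against blood neutrophils and -1.01 against nasal neutrophils. H2-Aa, the alpha chain partner of the same molecule, stood at 67.5 FPKM in DP, 188.1 FPKM in nasal neutrophils and 57.4 FPKM in blood neutrophils. Here DP lay close to blood (log2 ratio 0.23) and well below nasal neutrophils (log2 ratio -1.47). H2-Eb1, the beta chain of I-E, stood at 18.7 FPKM in DP, 72.4 FPKM in nasal neutrophils and 15.6 FPKM in blood neutrophils, which is the order and spacing of H2-Aa. C57BL/6 mice are known to lack a functional I-E alpha chain, and its gene, listed as H2-Ea-ps, was at 0 in all 3 libraries.

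The chains of I-A therefore did not keep 1 ratio across libraries. The ratio of H2-Ab1 to H2-Aa was 3.44 in DP, 1.66 in the nasal neutrophils and 0.880 in the blood neutrophils. The ratio of H2-Aa to H2-Eb1 varied less, at 3.61 in DP, 2.60 in the nasal neutrophils and 3.69 in the blood neutrophils. As a share of the 3 chains, H2-Ab1 made up 72.9% in DP, 54.6% in the nasal neutrophils and 40.9% in the blood neutrophils. H2-Aa made up 21.2%, 32.8% and 46.5% in the same libraries, and H2-Eb1 5.88%, 12.6% and 12.6%. Ratios within a library do not depend on how libraries are scaled to each other.

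**Figure D2:**
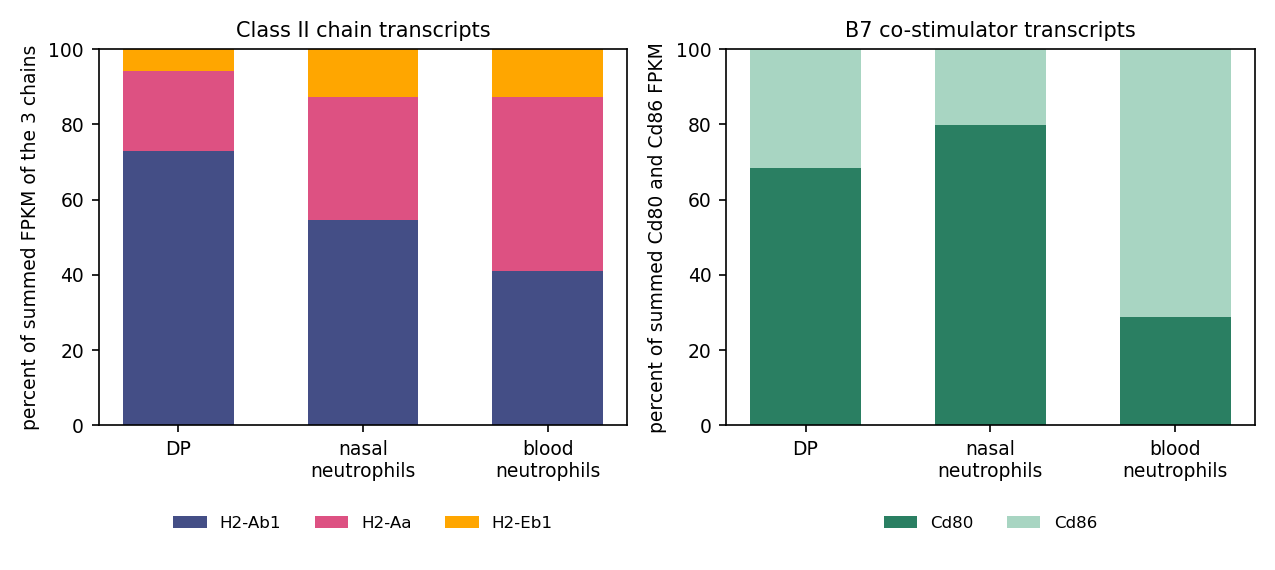
Left, share of H2-Ab1, H2-Aa and H2-Eb1 in the summed FPKM of the 3 class II chains; right, share of Cd80 and Cd86 in the sum of both, in each library. H2-Ab1 takes 72.9% of the chains in DP and 40.9% in blood neutrophils, and Cd80 takes 68.3% of the B7 transcripts in DP and 28.9% in blood neutrophils.

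Cd74, whose product escorts class II and also acts as a receptor for the cytokine MIF, was the most abundant member in each library. It stood at 819.9 FPKM in DP, 1115 FPKM in nasal neutrophils and 226.6 FPKM in blood neutrophils, which ranked it 108th, 77th and 365th among the 10719 tested genes. It ran close to H2-Ab1, with a Cd74 to H2-Ab1 ratio of 3.54 in DP, 3.57 in the nasal neutrophils and 4.48 in the blood neutrophils. As deposited, the nasal libraries again stood together, with log2 ratios against blood neutrophils of 1.85 for DP and 2.29 for nasal neutrophils. Centred on the median of all tested genes, Cd74 in DP was at 0.90 against blood neutrophils and -1.02 against nasal neutrophils.

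The chains of H2-M followed the same course at lower levels. H2-DMa, its alpha chain, stood at 21.8 FPKM in DP, 31.9 FPKM in nasal neutrophils and 6.31 FPKM in blood neutrophils. H2-DMb1, its beta chain, stood at 17.1 FPKM in DP, 28.5 FPKM in nasal neutrophils and 5.04 FPKM in blood neutrophils, so the H2-DMa to H2-DMb1 ratio stayed between 1.12 and 1.27. H2-DMb2, a near copy of H2-DMb1 with which reads may be divided, stood at 16.1 FPKM in DP, 20.6 FPKM in nasal neutrophils and 12.7 FPKM in blood neutrophils, and values of both genes are uncertain for that reason. H2-DMa and H2-DMb1 had the most similar profiles of any pair of members, at a distance of 0.12 between their log2(FPKM + 1) values centred over the 3 libraries, followed by H2-DMa and Cd74 at 0.15.

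The place of DP on the log2 scale, as a share of the distance by which nasal neutrophils exceeded blood neutrophils, divided these genes into sets. H2-Ab1 lay at 83.5%, Cd74 at 80.7%, H2-DMa at 75.6% and H2-DMb1 at 69.4% of that distance. H2-Aa lay at 13.5% and H2-Eb1 at 11.6%. These sets were formed after their values were seen. The places also rest on the deposited scaling. Centred on the median of all tested genes, log2 ratios against blood for DP and nasal neutrophils were 1.22 and 2.20 for H2-Ab1. They were 0.90 and 1.88 for Cd74, 0.69 and 1.76 for H2-DMa, and 0.63 and 1.88 for H2-DMb1. Centred ratios of DP against blood were -0.72 for H2-Aa and -0.70 for H2-Eb1. With ratios corrected for transcript length, DP against blood neutrophils gave log2 ratios of -0.35 for H2-Aa and -0.18 for H2-Eb1. The same correction gave 1.59 for H2-Ab1 and 1.21 for H2-DMa, so the sign of H2-Aa and H2-Eb1 did not hold. Genes of like length are shifted alike, here H2-Aa with H2-Ab1 and H2-Eb1 with H2-DMa. The correction therefore cannot show whether the division holds.

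Ciita, the transactivator of class II genes, was low. It stood at 0.226 FPKM in DP, 1.69 FPKM in nasal neutrophils and 0.450 FPKM in blood neutrophils, and with a mean of 0.788 FPKM it was the member that did not reach the 1 FPKM mean and is left out of the counts below. For its long transcript these values rest on about 74, 130 and 145 fragments. The plain FPKM ratio of DP to nasal neutrophils was 0.134 (95% interval for counting error 0.101 to 0.178), and that of DP to blood neutrophils was 0.502 (0.380 to 0.665). The order of Ciita, lowest in DP, thus differed from that of H2-Ab1 and Cd74, for which DP stood above blood.

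The co-stimulation genes did not share a course. Cd80, encoding B7-1, stood at 35.2 FPKM in DP, 30.9 FPKM in nasal neutrophils and 12.8 FPKM in blood neutrophils. The nasal libraries were near each other, with a log2 ratio of 0.18 that turned to -0.39 once ratios were centred on the median of all tested genes and to -0.46 with upper-quartile scaling. Cd86, encoding B7-2, stood at 16.3 FPKM in DP, 7.82 FPKM in nasal neutrophils and 31.5 FPKM in blood neutrophils, so blood was highest and nasal neutrophils lowest. The summed level of the B7 genes varied little, at 51.5 FPKM in DP, 38.7 FPKM in nasal neutrophils and 44.2 FPKM in blood neutrophils. Its make-up differed: Cd80 was 68.3% of the sum in DP, 79.8% in the nasal neutrophils and 28.9% in the blood neutrophils.

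Cd83, a marker of activated dendritic cells and B cells, showed the widest span of the members. It stood at 38.7 FPKM in DP, 77.9 FPKM in nasal neutrophils and 2.24 FPKM in blood neutrophils. Its FPKM was 17.3-fold above blood neutrophils in DP and 34.7-fold above them in nasal neutrophils, and 2.01-fold lower in DP than in nasal neutrophils. The ratio of Cd83 to Cd86 was 2.37 in DP, 9.96 in the nasal neutrophils and 0.0714 in the blood neutrophils.

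DP against nasal neutrophils asks how Ly6G+ nasal cells with and without SiglecF differ, at day 2 and day 1. Of the 9 tested members, 0 were at least 4-fold higher in DP, against 8.42% of all tested genes, and 0 were at least 4-fold lower, against 3.62%. At a 2-fold threshold on the same log2(FPKM + 1) scale, 0 members were higher, against 33.6% of all tested genes, and 2, H2-Aa and H2-Eb1, were lower, against 11.3%. On plain FPKM, Cd86 (2.09-fold higher) and Cd83 (2.01-fold lower) would also pass 2-fold. The median log2 ratio of the 9 members was -0.53, below the 0.57 of all tested genes, and 8 of the 9 lay below that median, Cd86 being the exception with a log2 ratio of 0.97. The balance of all genes rested on scaling: of genes past 4-fold, 69.9% were higher in DP as deposited and 31.8% with centred ratios. With centred ratios H2-Aa (-2.04) and H2-Eb1 (-2.47) passed 4-fold.

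**Figure D3:**
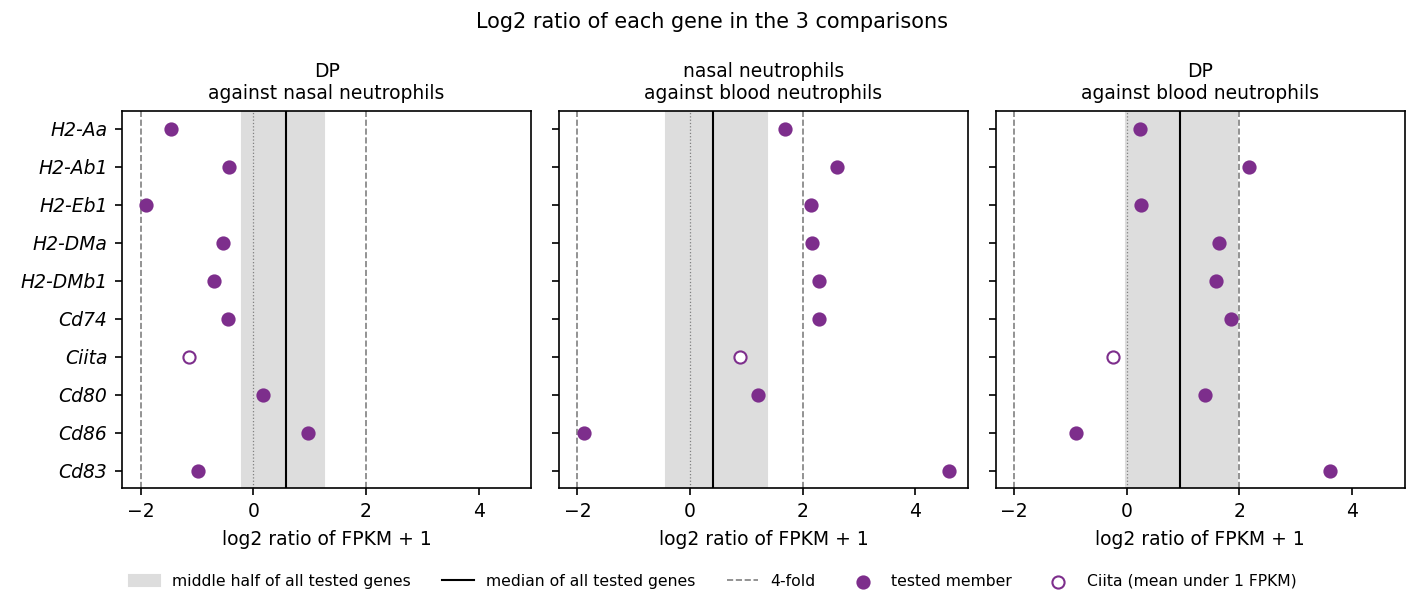
Log2 ratio of FPKM + 1 of each gene in the 3 comparisons, with the median (line) and the interquartile range (grey band) of all tested genes and dashed lines at 4-fold; the open point is Ciita. The class II chains, H2-DMa, H2-DMb1 and Cd74 sit left of the grey band for DP against nasal neutrophils and right of it for nasal against blood neutrophils, and Cd86 goes opposite to Cd83 in each panel.

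The comparison of nasal with blood neutrophils holds gate and day constant and changes the tissue. Depth differs too, as do olfactory and epithelial markers, which summed to 2267 FPKM in nasal and 1.86 FPKM in blood neutrophils. These differences cannot be told apart from tissue. Here 6 of the 9 tested members were at least 4-fold higher in nasal neutrophils, against 13.1% of all tested genes: H2-Ab1, H2-Eb1, H2-DMa, H2-DMb1, Cd74 and Cd83. None of the 9 (0) was at least 4-fold lower, against 3.23% of tested genes. At 2-fold, 8 were higher, against 33.5% of tested genes, and 1, Cd86, was lower (log2 ratio -1.88), against 12.8%. The median log2 ratio of the 9 was 2.17, beside 0.41 for all tested genes. With centred ratios 2 members, H2-Ab1 and Cd83, remained 4-fold higher and Cd86 was 4-fold lower, and of all genes past 4-fold 61.4% were higher in the nose, against 80.3% as deposited.

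For DP against blood neutrophils, 2 of the 9, H2-Ab1 and Cd83, were at least 4-fold higher, against 24% of all tested genes, and 0 were at least 4-fold lower, against 3.57%. At 2-fold, 6 were higher, against 48.6% of tested genes, and 0 lower, against 9.49%. The share of members past 4-fold was thus close to that of all tested genes. The median log2 ratio of the members was 1.59, beside 0.95 for all tested genes, with Cd86 at -0.91. H2-Aa and H2-Eb1, at 0.23 and 0.25, lay below the median of all tested genes and turned to -0.72 and -0.70 when centred on it; of all genes past 4-fold, 87.1% were higher in DP as deposited and 53.5% with centred ratios. The 3 comparisons share libraries, so their ratios are not separate evidence.

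Transcript length moved with the ratios of DP. For DP against nasal neutrophils the median log2 ratio was 0.82 over 2584 tested genes of 1000 to 2000 nt and 0.31 over 2635 genes of 4000 nt or more. The class II chains, H2-DMa, H2-DMb1 and Cd74 have transcripts of 1128 to 1669 nt, and Cd80, Cd86 and Cd83 of 2477 to 3173 nt. Corrected for length, the median of the 9 members was -0.92 for DP against nasal neutrophils, 1.90 for nasal against blood neutrophils and 1.24 when DP were set against blood.

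Genes that act with class II in the endosome were examined from a list of 19, of which 16 had a row under the names used and 14 passed the 1 FPKM mean. For DP against nasal neutrophils 0 of the 14 were at least 4-fold higher and 1 lower, for nasal against blood neutrophils 5 were higher and 0 lower, and 2 were higher and 1 lower when DP were set against blood. Their median log2 ratios were -0.51, 1.04 and 0.56 in these comparisons, beside 0.57, 0.41 and 0.95 for all tested genes. Counts of this list and of those that follow are read beside the shares of all tested genes past 4-fold, which were 8.42% higher and 3.62% lower for DP against nasal neutrophils, 13.1% and 3.23% for nasal against blood neutrophils, and 24% and 3.57% when DP were set against blood; for the last of these, the 2 of 14 higher and the median lay below the values of all genes. Lgmn, the asparaginyl endopeptidase legumain, stood at 165.9 FPKM in DP, 94.1 FPKM in nasal neutrophils and 6.09 FPKM in blood neutrophils. Lamp1, a lysosomal membrane protein gene, was nearly level in the nose at 227.2 FPKM in DP and 218.4 FPKM in nasal neutrophils, and stood at 19.9 FPKM in blood neutrophils. The cathepsin genes Ctsb (369.2 FPKM in DP, 638.3 FPKM in nasal neutrophils and 118.4 FPKM in blood neutrophils) and Ctsz (336.6, 535.6 and 108.8 FPKM) followed the order of Cd74.

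Ctsd, an aspartic protease gene, differed from them, with 212.3 FPKM in DP, 1219 FPKM in nasal neutrophils and 1155 FPKM in blood neutrophils. Ifi30, the lysosomal thiol reductase that unfolds antigens, stood at 11.4 FPKM in DP, 22.5 FPKM in nasal neutrophils and 3.54 FPKM in blood neutrophils. H2-Oa and H2-Ob encode H2-O, the inhibitor of H2-M found mainly in B cells. H2-Ob stood at 0.98 FPKM in DP, 2.36 FPKM in nasal neutrophils and 3.75 FPKM in blood neutrophils, and H2-Oa at 2.33, 2.85 and 3.20 FPKM, so both genes were highest in blood neutrophils and lowest in DP. H2-Oa, H2-Ob and H2-DMb2 were singled out after their values were seen.

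Transcription factors that act at class II promoters or on Ciita were counted in the same way. Of 18 listed, 17 had a row and 14 passed the 1 FPKM mean. None (0) was 4-fold apart between DP and nasal neutrophils or between DP and blood neutrophils, and 2 were at least 4-fold higher in nasal than in blood neutrophils, Irf8 and Prdm1. The list medians were -0.36 for DP against nasal neutrophils, 0.01 for nasal neutrophils against blood and 0.68 for DP against blood. Irf8, a factor of dendritic cell and monocyte lineages, stood at 1.99 FPKM in DP, 10.2 FPKM in nasal neutrophils and 0.45 FPKM in blood neutrophils, and Prdm1, which encodes the Ciita repressor Blimp-1, at 1.49, 6.63 and 0.03 FPKM. Rfx5, part of the complex that binds the X box, was at 1.39 FPKM in DP, 2.43 FPKM in nasal neutrophils and 0.15 FPKM in blood neutrophils. Other genes of that complex did not share this order and were highest in DP. Rfxank stood at 6.42, 2.04 and 3.42 FPKM in the same libraries, and Rfxap, below the 1 FPKM mean, at 0.80, 0.29 and 0.23 FPKM. Irf8, Prdm1, Rfx5, Rfxank and Rfxap lie below the mean of 5 FPKM used for naming and were picked with their values in view.

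Interferon gamma is the classic inducer of Ciita. Its transcript Ifng was at 0.52 FPKM in DP and listed at 0 in nasal and blood neutrophils. Of 9 tested genes of its signal, 0 were 4-fold apart between DP and nasal neutrophils, 1 was at least 4-fold higher in nasal than in blood neutrophils and 2 in DP than in blood neutrophils, with medians of 0.31, -0.13 and 0.64. Those past 4-fold were Socs1 in both comparisons with blood and Jak2, a kinase of the receptor, in DP against blood, at 32.2 FPKM in DP, 11.1 FPKM in nasal neutrophils and 4.80 FPKM in blood neutrophils. Irf1, a transcription factor gene that acts on Ciita, stood at 139.9 FPKM in DP, 350.6 FPKM in nasal neutrophils and 157.2 FPKM in blood neutrophils. Socs1, a feedback inhibitor, stood at 18.4 FPKM in DP, 59.7 FPKM in nasal neutrophils and 1.91 FPKM in blood neutrophils. These genes too were named after their values were seen.

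Further co-stimulatory and adhesion genes were counted from a list of 20, of which 12 passed the 1 FPKM mean. For DP against nasal neutrophils 0 were at least 4-fold higher and 2 lower, for nasal against blood neutrophils 6 were higher and 0 lower, and 3 were higher and 0 lower when DP were set against blood, with medians of -0.76, 1.87 and 0.95. Set against blood, the DP count and median of this list were thus those of all tested genes. Icam1, the ligand of LFA-1 at the synapse, stood at 108.6 FPKM in DP, 412 FPKM in nasal neutrophils and 4.64 FPKM in blood neutrophils. Tnfsf9, the 4-1BB ligand gene, was higher in DP at 73.7 FPKM against 33.7 FPKM in nasal neutrophils and 3.38 FPKM in blood neutrophils. The inhibitory receptor gene Havcr2 showed that order too, at 37 FPKM in DP, 17 FPKM in nasal neutrophils and 0.63 FPKM in blood neutrophils. Cd274, encoding the inhibitory ligand PD-L1, stood at 20.5 FPKM in DP, 409.4 FPKM in nasal neutrophils and 12.3 FPKM in blood neutrophils, and Cd24a at 72.7, 310 and 139.8 FPKM. Cd40, whose product responds to T cell help, was low at 4.14 FPKM in DP, 6.76 FPKM in nasal neutrophils and 0.48 FPKM in blood neutrophils, a gene named after its values were seen.

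**Figure D4:**
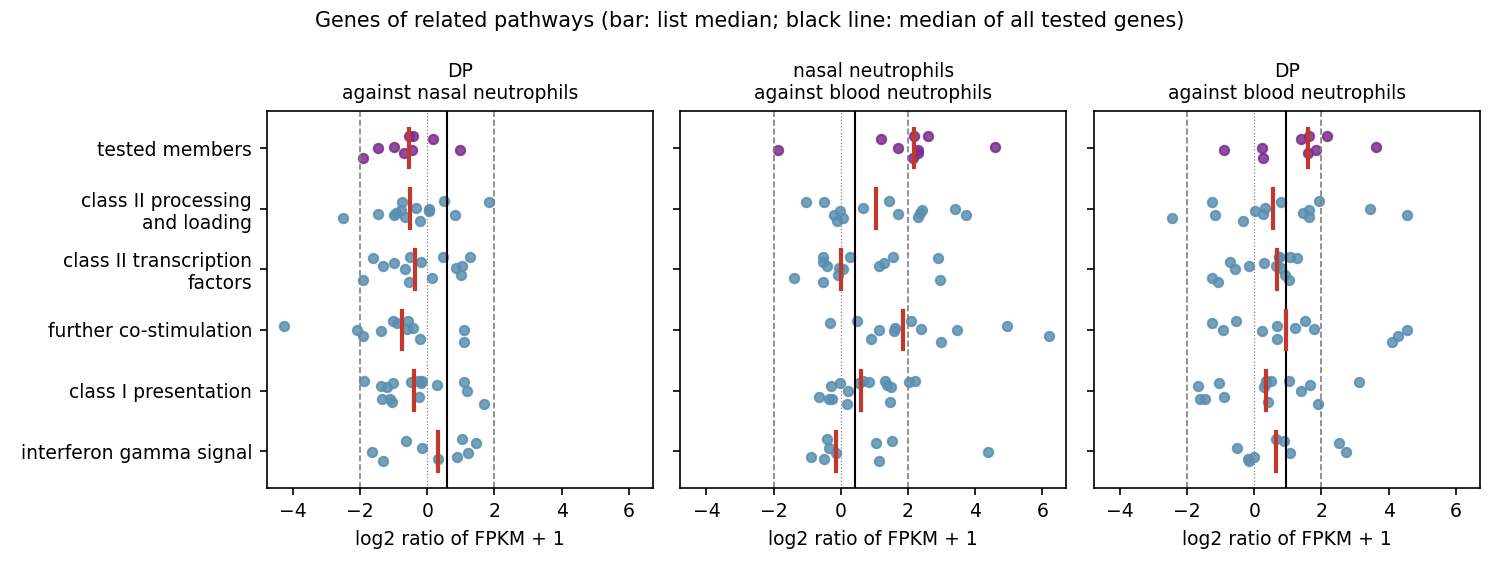
Log2 ratio of FPKM + 1 of the 9 tested members and of the tested genes of 5 related lists in the 3 comparisons; each point is a gene, the red bar is the list median, the black line is the median of all tested genes and dashed lines mark 4-fold. The members and the further co-stimulation list have the highest medians for nasal against blood neutrophils, at 2.17 and 1.87.

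Class I presentation, which shows peptides of the cell's own proteins to CD8+ T cells, was set beside class II. Of 16 genes, all tested, 0 were 4-fold apart between DP and nasal neutrophils, 2 were at least 4-fold higher in nasal than in blood neutrophils and 1 was at least 4-fold higher in DP than in blood neutrophils, with medians of -0.39, 0.61 and 0.35. The chaperone gene Canx stood at 89.7 FPKM in DP, 41.6 FPKM in nasal neutrophils and 9.52 FPKM in blood neutrophils. B2m, the class I light chain, was abundant in each library, at 1499 FPKM in DP, 3846 FPKM in nasal neutrophils and 4608 FPKM in blood neutrophils. Nlrc5, the class I counterpart of Ciita, stood at 0.94 FPKM in DP, 6.14 FPKM in nasal neutrophils and 0.54 FPKM in blood neutrophils, so like Ciita it was highest in nasal neutrophils; B2m and Nlrc5 were picked with their values in view. Of 4 partners of CD74, 1 was at least 4-fold lower in DP than in nasal neutrophils and 1 in nasal than in blood neutrophils, and against blood 1 was higher and 2 lower in DP. Mif, its ligand, stood at 199 FPKM in DP, 94.2 FPKM in nasal neutrophils and 44.7 FPKM in blood neutrophils, Cd44, its co-receptor, at 72.7, 371.6 and 356 FPKM, and the chemokine receptor gene Cxcr2 at 254.2, 350.0 and 1444 FPKM. T cell genes for partners of class II or of co-stimulatory and inhibitory molecules (Cd28, Ctla4, Cd4, Icos, Cd40lg and Pdcd1) were all under 1 FPKM in every library.

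Cells of other types carry class II, and their markers were read in the same libraries; their part in the class II values was not tested. Counts below are of list genes with a mean of 1 FPKM or more, on the log2(FPKM + 1) scale, and are read beside the shares of all tested genes. By 2-fold or more, 33.6% of these were higher and 11.3% lower in DP than in nasal neutrophils. For nasal against blood neutrophils the shares were 33.5% and 12.8% by 2-fold, and 13.1% and 3.23% by 4-fold. The 14 B cell markers summed to 153.7 FPKM in DP, 201.1 FPKM in nasal neutrophils and 230 FPKM in blood neutrophils, led by Cd37 (97.8, 121.6 and 149.5 FPKM), which other leukocytes share, and Ebf1 (46.5, 15.8 and 0.50 FPKM), which olfactory tissue also expresses. Of 11 counted, 1 was higher by 2-fold or more and 7 lower by as much in DP than in nasal neutrophils, and 2 were higher and 2 lower in nasal than in blood neutrophils. The B cell receptor chain genes differed in order: Cd79a stood at 2.19 FPKM in DP, 23.2 FPKM in nasal neutrophils and 18.9 FPKM in blood neutrophils, and Cd79b at 1.83, 11.4 and 27.8 FPKM. Pax5 and Blk were listed at 0 in DP.

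Macrophage markers summed to 739.4 FPKM in DP, 1032 FPKM in nasal neutrophils and 550.9 FPKM in blood neutrophils over 15 genes, with 3 at 0 in DP, 0 at 0 in nasal neutrophils and 8 at 0 in blood neutrophils. Of 9 counted, 0 were higher by 2-fold or more and 5 lower by as much in DP than in nasal neutrophils, and 6 were higher and 0 lower in nasal than in blood neutrophils. Their leading genes differed in order. Apoe (277.6, 468.8 and 150.1 FPKM in DP, in nasal and in blood neutrophils) had that of the class II chains, Cd68 (296.3, 181.1 and 235.3 FPKM) was highest in DP, and Csf1r (42.4, 130.7 and 85.9 FPKM) was lowest in DP. The complement genes C1qa, C1qb and C1qc were above 0 in both nasal libraries and listed at 0 in blood neutrophils.

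All 11 monocyte markers were counted. Of these, 0 were higher by 2-fold or more and 11 lower by as much in DP than in nasal neutrophils. For nasal against blood neutrophils, 8 were higher by 2-fold or more and 1, Lyz2 (log2 ratio -1.39), lower by as much. By 4-fold, 8 were higher and 0 lower in nasal than in blood neutrophils. Ccr2, the receptor that monocytes use to enter tissue, stood at 5.16 FPKM in DP, 15.8 FPKM in nasal neutrophils and 0.757 FPKM in blood neutrophils. The sum of the list was 4978 FPKM in DP, 15907 FPKM in nasal neutrophils and 6785 FPKM in blood neutrophils, led by Cd14 (4118, 12196 and 204.2 FPKM), Lyz2 (479.8, 2328 and 6120 FPKM) and Plac8 (291.9, 844.2 and 196.4 FPKM). Neutrophils also express Cd14 and Lyz2.

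Dendritic cell markers, also 15 genes, summed to 105.8 FPKM in DP, 130.4 FPKM in nasal neutrophils and 23.1 FPKM in blood neutrophils, likewise in the order of the class II chains. Of 8 counted, 1 was higher by 2-fold or more and 4 lower by as much in DP than in nasal neutrophils, and 7 were higher and 0 lower in nasal than in blood neutrophils. Their leading genes Bst2 (39.2, 78.8 and 9.27 FPKM), Itgax (55.4, 14.3 and 5.34 FPKM) and Ccr7 (1.67, 10.4 and 3.97 FPKM) are also known from other leukocytes. Of less abundant members, Ccl22 stood at 0.805 FPKM in DP, 9.24 FPKM in nasal neutrophils and 0 in blood neutrophils, and Flt3 at 0.03, 0.64 and 0.06 FPKM. Clec9a was listed at 0 in both nasal libraries and Cd207 in all 3 libraries.

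T and NK cell markers (13 genes) summed to 23.8 FPKM in DP, 12.5 FPKM in nasal neutrophils and 23.5 FPKM in blood neutrophils, led by Nkg7, Gzma and Cd2. Eosinophil markers (10 genes) summed to 218.3 FPKM in DP, 39.4 FPKM in nasal neutrophils and 31.6 FPKM in blood neutrophils. By the mean over libraries they were led by Siglec5, the listed name of the sorted SiglecF gene, at 167.8 FPKM in DP, by Cebpe, and by Ear2, which was at 0.43 FPKM in DP; the granule gene Epx was at 0 in all 3 libraries. Neutrophil markers (12 genes) summed to 12921 FPKM in DP, 59135 FPKM in nasal neutrophils and 79755 FPKM in blood neutrophils, led by S100a9, S100a8 and Retnlg, the blood sum being without S100a8. Olfactory and epithelial markers (15 genes) summed to 3339 FPKM in DP, 2267 FPKM in nasal neutrophils and 1.86 FPKM in blood neutrophils, led by Obp1a, Cbr2 and Omp.

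**Figure D5:**
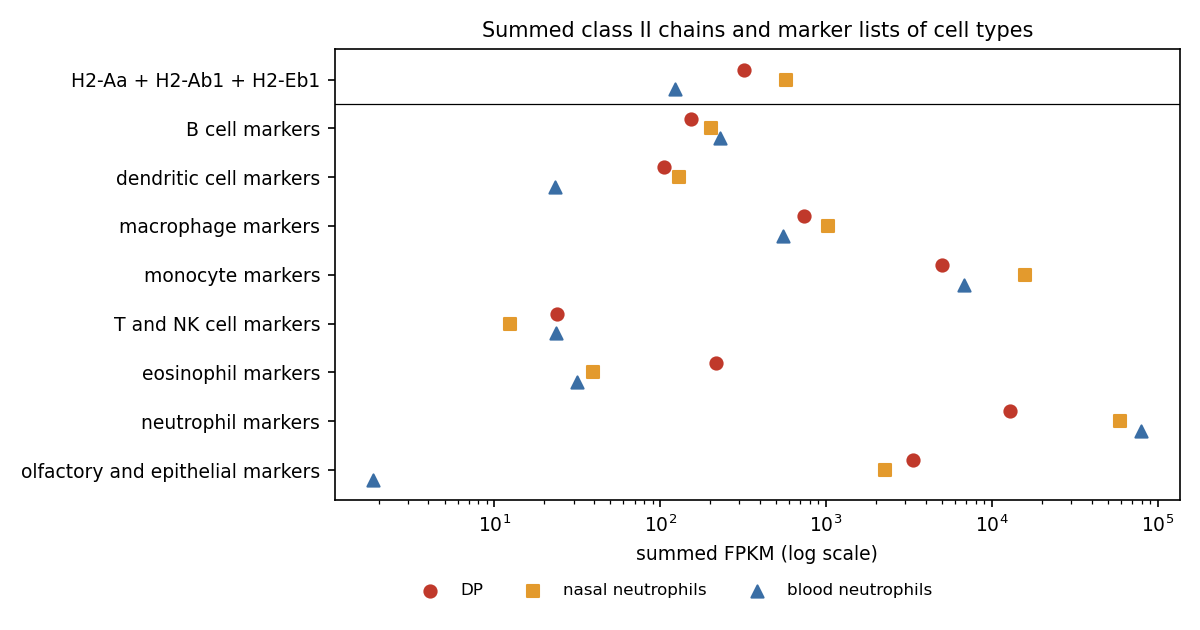
Summed FPKM (log axis) of the 3 class II chains and of 8 marker lists in DP, nasal neutrophils and blood neutrophils, 1 point per library. The class II sum (318, 573.3 and 123.6 FPKM) shares its order with the sums of the dendritic cell and macrophage lists. The monocyte sum is also highest in nasal neutrophils. It is lowest in DP. Single genes give most of it: Cd14 gives 4118 of 4978 FPKM in DP and 12196 of 15907 FPKM in nasal neutrophils. In blood neutrophils Lyz2 gives 6120 of 6785 FPKM.

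Other genes with profiles near the mean of H2-Aa, H2-Ab1, H2-Eb1 and Cd74, or near Cd83, were sought among 5954 genes. These genes were no members, were above 0 in each library and had a mean of 5 FPKM or more. The measure was the distance between log2(FPKM + 1) values centred over the 3 libraries, and with 3 libraries many genes lie close. Nearest to the mean profile of H2-Aa, H2-Ab1, H2-Eb1 and Cd74 were Slc31a2, P2ry2, Slc2a1, Gpr132 and Irak3, at distances of 0.046 to 0.089, and 106 genes lay within 0.5. That mean lies between members with unlike profiles, H2-Aa and H2-Ab1 being 1.38 apart. A gene near the mean therefore need not follow any single class II gene. Slc2a1, which encodes the glucose transporter GLUT1, stood at 91.6 FPKM in DP, 201.5 FPKM in nasal neutrophils and 41.3 FPKM in blood neutrophils. Irak3, an inhibitor of Toll-like receptor signalling, stood at 58.2 FPKM in DP, 133.3 FPKM in nasal neutrophils and 27.8 FPKM in blood neutrophils. Nearest to Cd83 were Txnrd1, Tubb3, Fam20c, Aqp5 and Csf1, at distances of 0.063 to 0.25, with 20 genes within 0.5. Txnrd1, which encodes thioredoxin reductase, stood at 29.9 FPKM in DP, 64.1 FPKM in nasal neutrophils and 1.64 FPKM in blood neutrophils, and Csf1, the macrophage growth factor, at 120.9, 271.6 and 11.8 FPKM.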

How the data were processed

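The authors deposited 1 table of FPKM values per library, with 23234 gene symbols each; the file headers give the library code and not the unit, which follows from Cufflinks. Per the submitters' processing notes, TopHat2 2.0.8, Bowtie2 2.1.0, Cufflinks 2.1.1 and mm9 were used; the settings and annotation were not given in the sources used here. Groups came from titles, 1 library each, so no test was run.

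Values under 1e-06 FPKM were set to 0. Log2 ratios of FPKM + 1 were computed with Python 3.11.15 and pandas 2.3.3, genes with a mean of 1 FPKM or more were counted (10719), and 4-fold was the threshold. The steps were checked on simulated data. Depth was read from steps of low values (6% tolerance) over 2223 genes with a single transcript above 1500 nt, with GENCODE M21 lengths, which matched 98.7% of tested genes by symbol; fragment numbers are approximate, and intervals from them cover counting error only. Promoters are RefSeq sequences.

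The members and lists were chosen with earlier results of these data known. All members were named; of the lists of class II processing, transcription factors, co-stimulation and class I, genes with a mean of 5 FPKM or more and a 4-fold difference (at most 6 a list), the 3 highest of each marker list and the 5 nearest profiles; exceptions are stated beside them, and C1qa, C1qb, C1qc, Ccr2, Ccl22, Cd79b, Cd207, Csf3r, Lcn2, Jak2, Cxcr2, Flt3, Clec9a, Epx, Pax5, Blk, Mif, Cd44 and Ifng were also chosen after their values were seen. Spi1, Sppl2a, Cd58, Ighm, March1 and March8 were not analysed here.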

Additional observations from a re-analysis of the deposited data

How the results depend on the processing

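Alternatives were pseudocounts of 0.1 and 5, no filter, a mean of 5 FPKM or more, a sum of 1000000 per library, centring on the median of all tested genes, upper-quartile scaling, a 2-fold threshold and, chosen after seeing the data, correction for transcript length in 20 bins. Of 30 member ratios (10 genes, 3 comparisons), 27 kept their sign under each alternative run for them; Cd80 for DP against nasal neutrophils, and H2-Aa and H2-Eb1 for DP against blood neutrophils, turned under centring and upper-quartile scaling, and the last 2 also with length correction. For DP against nasal neutrophils, members at least 4-fold lower numbered 2 with centring, 2 with upper-quartile scaling, 2 at the 2-fold threshold and 1 with length correction, against 0; their median log2 ratio, -0.53, became -0.66 with rescaled sums, -1.10 centred, -1.16 with upper-quartile scaling and -0.92 with length correction. For nasal against blood neutrophils, members at least 4-fold higher numbered 3 at a pseudocount of 5, 2 with centring, 4 with upper-quartile scaling, 4 with length correction and 8 at 2-fold, against 6, and 1 was lower (Cd86) with centring, upper-quartile scaling, length correction and at 2-fold; the median, 2.17, became 2.30 at a pseudocount of 0.1, 1.74 at 5, 2.29 with rescaled sums, 1.76 centred, 1.97 with upper-quartile scaling and 1.90 with length correction. For DP against blood neutrophils, 1 member (Cd83) was at least 4-fold higher with centring, upper-quartile scaling or length correction and 6 were at 2-fold, against 2; the median, 1.59, became 1.75 at a pseudocount of 0.1, 1.18 at 5, 0.63 centred, 0.77 with upper-quartile scaling and 1.24 with length correction. The causes of these shifts were not tested. No paired analysis was possible because each group is 1 library, and for that reason no library could be left out. Nasal neutrophils were the shallowest library, and the lowest member count, of Ciita in DP, rests on about 74 fragments.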
